A study of Mus musculus with 148 samples.

Results

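Ccl3, Ccl4 and Ccl5 are 3 CC chemokine genes among the 52542 gene rows of the deposited plate tables. They were listed by symbol and chosen by their measured UMI levels across T cell, NK cell, monocyte, macrophage and neutrophil labels and tissues, with earlier results of these data in view. Their levels by label are therefore given as a description with no test, and the p-values of the tissue comparisons measure size against the spread between samples and are not independent evidence that these genes were worth choosing.

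The study followed lung metastasis of breast cancer in PA-GFP C57BL/6 female mice, whose cells all carry a green fluorescent protein that light switches on. Mice received EO771-tdTomato cells, a mouse mammary carcinoma line with a red label, in a mammary gland at 8 weeks of age, and the tumor was resected 3 weeks after the injection in mice followed for metastasis. Single cells were sorted into plates and their RNA was counted as UMIs, which are tags that count each captured molecule at its 3′ end once. The 63 samples of 27 mice were analysed as sums over 23425 immune cells, with all plates of a mouse and tissue taken as 1 sample.

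Control lungs (n = 3) came from PA-GFP mice with no tumor, and Pre-MET lungs (n = 3) from mice that still bore the primary tumor. Relapse-free lungs (n = 6) came from resected mice with no metastasis found. Distal normal tissue (n = 14) and metastases (n = 13) were lung sections away from and with metastases, and 13 mice gave both. These groups and the primary tumors (n = 4) were sorted as CD31-CD45+ cells. Some relapse-free plates were instead sorted for photoactivated cells, or for CD45+ cells that were not photoactivated. Metastasis cores (n = 13) and invasive margins (n = 7) were sorted as CD31- photoactivated cells, with CD45 added to the gate in the core of mouse 17 alone, and 6 mice gave both. The margin of mouse 17 carried the photoactivation target NON-MET where other margins carried ADJ. All 3 Pre-MET mice also gave a primary tumor, so those samples share animals. Every tumor grew from the same cell line, and lungs and tumors were dissociated with different programs.

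The sums held 55 to 1974 immune cells per sample, with a median of 1133 UMIs per cell. Cells of primary tumors held more UMIs, at a median of 3148, against 1013 to 1139 in the other tissues. Control lungs were in a sequencing batch of their own, and 3 of 4 primary tumors were in a batch with no lung sample. Some markers of the labels are given as examples. Cd3e was at 153 CPM (UMIs per 1000000 UMIs of the summed cells) in T cells and at most 19.0 in other lineages. Ncr1 was at 1013 in NK cells, S100a8 at 110463 in neutrophils, Csf1r at 613 in monocytes and C1qa at 823 in macrophages. Levels of these markers in other lineages are not given.

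CC chemokines are small secreted proteins that draw leukocytes along a gradient by binding G protein-coupled receptors. The products of Ccl3 and Ccl4, also named MIP-1α and MIP-1β, and of Ccl5, also named RANTES, bind overlapping sets of receptors, and Ccl3 and Ccl5 both bind Ccr1. Ccl3 and Ccl4 are rapid response genes of activated myeloid cells and lymphocytes. Ccl5 is a late gene of T cells, kept as a store of transcript and protein in memory and effector CD8 T cells and in NK cells.

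The 3 genes lie close together on mouse chromosome 11 (GRCm38, GENCODE vM21 positions). Ccl5 is at chr11:83525778-83530518 and Ccl3 at chr11:83647844-83649355, both on the minus strand, and Ccl4 is at chr11:83662584-83664683 on the plus strand. Each has 3 exons. Ccl3 and Ccl4 are 13.2 kb apart and point away from each other, Ccl5 lies 117 kb from Ccl3, and Ccl9 and Ccl6, a pair of related ligands, lie between them. The coding sequences of Ccl3 and Ccl5 are shown because these genes had different patterns over cells in what follows although their products are related. Capitals mark bases that differ from the other gene in an alignment of both sequences, 5′ to 3′:
Ccl3: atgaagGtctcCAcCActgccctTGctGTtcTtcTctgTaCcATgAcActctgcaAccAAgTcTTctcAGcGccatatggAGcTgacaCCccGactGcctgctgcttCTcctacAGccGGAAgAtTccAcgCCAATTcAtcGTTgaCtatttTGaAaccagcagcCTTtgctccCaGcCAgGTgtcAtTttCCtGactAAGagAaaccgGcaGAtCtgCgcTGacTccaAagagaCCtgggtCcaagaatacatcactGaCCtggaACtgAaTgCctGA
Ccl5: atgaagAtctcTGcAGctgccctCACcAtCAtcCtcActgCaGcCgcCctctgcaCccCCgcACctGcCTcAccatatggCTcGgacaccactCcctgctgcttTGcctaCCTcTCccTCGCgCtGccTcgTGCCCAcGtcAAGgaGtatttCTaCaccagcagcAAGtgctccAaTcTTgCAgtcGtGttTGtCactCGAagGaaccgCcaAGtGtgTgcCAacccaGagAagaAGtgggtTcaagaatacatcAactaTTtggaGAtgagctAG

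Over 270 aligned coding bases Ccl3 and Ccl4 were identical at 201, which is 74.4%, and the longest stretch without a difference was 9 bases. Ccl3 and Ccl5 were 67.5% identical and Ccl4 and Ccl5 66.5%. Reads with several mapping positions had been excluded by the authors. Untranslated regions, where most 3′ reads fall, were not compared here.

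A promoter window, from 250 bases before to 50 after the start, was present for 1 of the 3 genes, Ccl3, in the RefSeq table for GRCm38.p6 (chr11:83649329-83649628, minus strand). It is shown because it is the only promoter window held for the 3 genes, and the capitals mark the match to an interferon-type motif:
Ccl3 promoter: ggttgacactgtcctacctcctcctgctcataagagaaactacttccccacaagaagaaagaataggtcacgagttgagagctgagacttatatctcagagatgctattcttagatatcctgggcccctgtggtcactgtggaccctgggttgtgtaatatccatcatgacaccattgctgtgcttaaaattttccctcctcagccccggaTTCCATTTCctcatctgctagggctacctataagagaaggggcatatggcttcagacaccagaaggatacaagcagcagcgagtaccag

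Both strands were searched for TATAAA (the core of a promoter box bound by TBP), GGGNNTTCC (an NF-κB-type motif), TGANTCA (an AP-1-type motif) and GAAANNGAA (an interferon-response-type motif). The last matched once, on the opposite strand 39 bases before the start, and the other motifs had no match to these letters in this window. GAAANNGAA was present in 8.56% of 32851 promoter windows of that length, TATAAA in 13.6%, GGGNNTTCC in 5.82% and TGANTCA in 7.81%.

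Ccl5 was a gene of cytotoxic lymphocytes with an additional peak in migratory dendritic cells. In sums per sample and label, taken over samples with at least 10 cells, T_CD8_Gzma cells had the highest mean, 39320 ± 12569 CPM (SD, n = 8). NK_Ncr1 cells followed at 29549 ± 7398 (n = 40), DC_migDC cells at 17763 ± 4943 (n = 3), T_CD8_Gzmk cells at 16434 ± 5195 (n = 45) and T_CD8_Lag3 cells at 9998 ± 5371 (n = 7). T_CD8_Gzma and NK_Ncr1 cells differed by less than the larger SD, as did DC_migDC and T_CD8_Gzmk cells, while the steps from NK_Ncr1 to DC_migDC cells and from T_CD8_Gzmk to T_CD8_Lag3 cells were larger than the SD of either label. These means pool tissues, and the 3 DC_migDC sums were all of primary tumors. There they were at 12329 to 21992 CPM, with no overlap with T_CD8_Gzmk cells at 7681 to 9261 CPM (8661 ± 855, n = 3). The 21 other labels with at least 2 sums had means of 1031 CPM or less. Among them were T_CD8_Dapl1 cells at 1031 ± 1251 CPM (n = 9), and NK_Xcl1 cells at 816 ± 390 CPM (n = 6), far under the NK_Ncr1 label of the same lineage.

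The highest levels of Ccl3 and Ccl4 were in a different set of cells, led by the neutrophil label Neut_PMN-MDSC. Ccl3 was at 15898 CPM there in a relapse-free lung of mouse 7, at 8638 and 8163 in metastases of mice 31 and 32, and at 11574 and 6814 in cores of mice 17 and 37, a mean of 10217 ± 3620 CPM (n = 5). Ccl4 in the same 5 sums was at 52681, 25407, 15861, 31077 and 4885 CPM, a mean of 25982 ± 17935. For Ccl3 all 5 sums lay above every sum of the T, NK, monocyte and macrophage labels, and 1 Neut_Ptgs2 sum, of 12 cells from the core of mouse 28, reached 9287 CPM. Neut_PMN-MDSC cells held S100a8, the gene by which the paper identified neutrophils, at 11818 CPM, against 64229 in Neut_Ptgs2 cells. Levels of other neutrophil markers in this label are not given, so S100a8 alone does not settle what these cells are.

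After that label, Ccl3 was at 883 ± 905 CPM in T_CD8_Lag3 cells (n = 7), 656 ± 362 in Mac_Isg20 cells (n = 15), 583 ± 1786 in Neut_Ptgs2 cells (n = 29), 407 ± 351 in NK_Ncr1 cells (n = 40) and 337 ± 244 in Mon_Thbs1 cells (n = 25). Ccl4 had the same 6 leading labels, at 4094 ± 3383 CPM in T_CD8_Lag3, 2216 ± 1222 in NK_Ncr1, 2115 ± 1629 in Mac_Isg20, 1995 ± 5398 in Neut_Ptgs2 and 944 ± 766 in Mon_Thbs1 cells. These labels overlapped, and their order is not firm. Migratory dendritic cells, high in Ccl5, had no Ccl3 UMI in 3 sums and a mean of 29.1 CPM of Ccl4. Next for Ccl3 were Mac_Gpnmb cells, at 299 ± 248 CPM (n = 14), Mac_Cd81 at 275 ± 407 (n = 9), Mac_Cd9 at 138 ± 145 (n = 11) and T_CD8_Gzma at 112 ± 219 (n = 8), and Mac_Gpnmb lay within 1 SD of Mon_Thbs1. The other labels had means of at most 78.0 CPM. Among them T_CD4_Lef1 cells were at 6.41 CPM, with none in 35 of 46 sums, and B cells at 11.0 CPM.

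**Figure D1:**
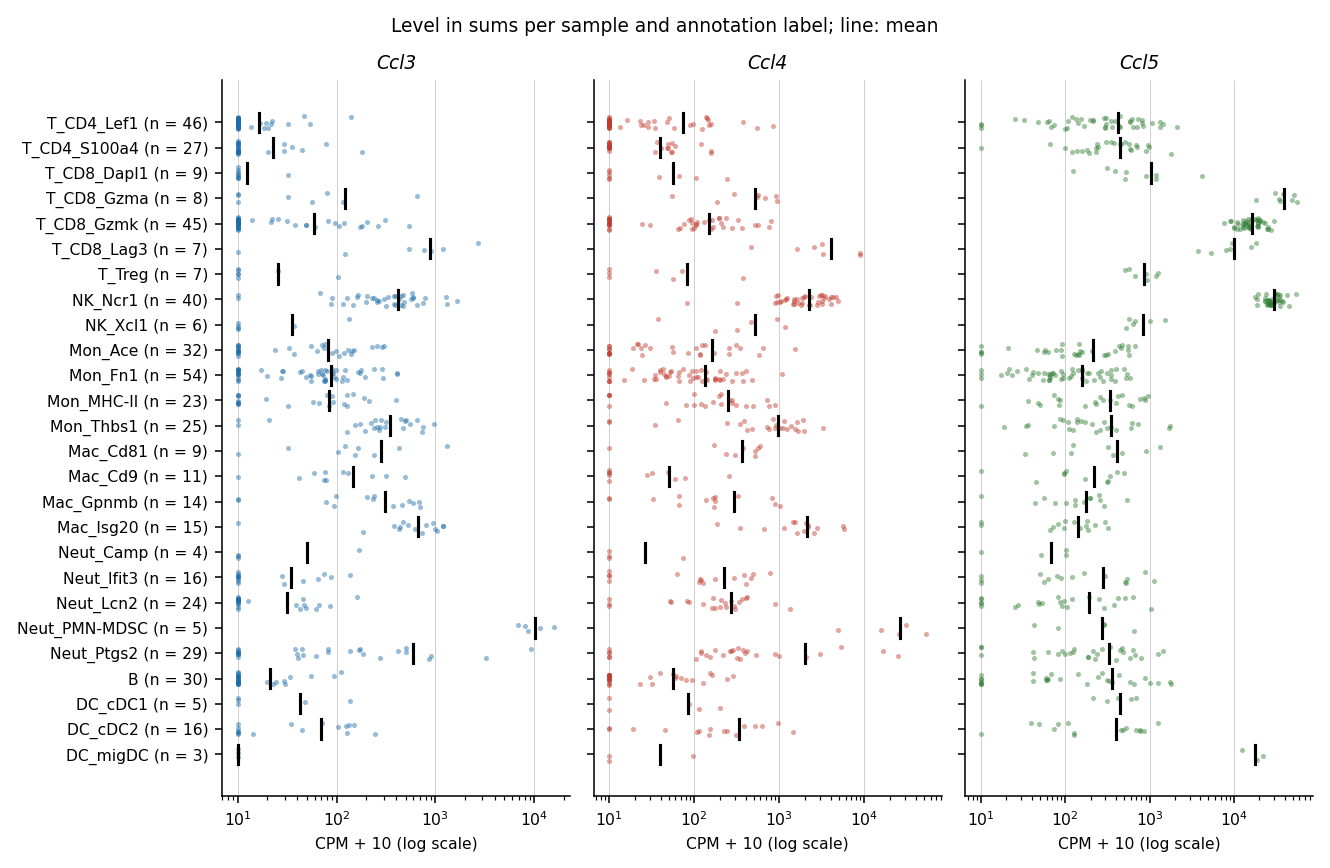
CPM + 10 on a log scale (x axis) of Ccl3, Ccl4 and Ccl5 in each sum per sample (points) for 26 annotation labels (y axis, with the number of sums), with the mean as a black line. Ccl3 and Ccl4 peak in Neut_PMN-MDSC cells, at means of 10217 and 25982 CPM, while Ccl5 sits above 3000 CPM only in T_CD8_Gzma, T_CD8_Gzmk, T_CD8_Lag3, NK_Ncr1 and DC_migDC cells, apart from 1 T_CD8_Dapl1 sum at 4213 CPM.

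Over the 26 labels with at least 2 sums, the Pearson correlation of log2(mean CPM + 10) was 0.878 between Ccl3 and Ccl4, -0.0395 between Ccl3 and Ccl5 and 0.146 between Ccl4 and Ccl5. These are descriptions over labels that come from the same libraries. Among 9040 other genes with at least 50 CPM in a label, the profile closest to Ccl3 was Ccl4, followed by Tnfrsf23 (r = 0.790), Il1a, which encodes interleukin 1α (r = 0.778), Amdhd2 and Tmem104. Those 4 also had their highest mean in Neut_PMN-MDSC cells. After Ccl3, the profiles closest to Ccl4 were Il10rb, a chain of the interleukin 10 receptor (r = 0.774), H3f3b, Gm43584 and Haus8. Closest to Ccl5 were Gm14029 (r = 0.910), Serpinb6b (r = 0.857), Tbx21, which encodes the T-bet transcription factor (r = 0.850), Serpinb9, a granzyme B inhibitor (r = 0.846), and Pogk (r = 0.845).

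Cells were thinned to 500 UMIs each, so that labels of different depth could be set side by side. Ccl5 was then seen in 98.9% of 2312 NK_Ncr1 cells (95% Wilson interval 98.4 to 99.2%) and 98.7% of 375 T_CD8_Gzma cells, in 88.2% of T_CD8_Gzmk cells, 70.1% of DC_migDC cells and 60.8% of T_CD8_Lag3 cells. The share was 12.1% in B cells (10.3 to 14.2%), 15.8% in T_CD4_Lef1 cells and 15.0% in Neut_Ptgs2 cells. The median depth before thinning was 986 UMIs in NK_Ncr1 and 1001 in B cells, and the shares without thinning were 99.9% and 20.7%. Of the 13 monocyte, macrophage and neutrophil labels, 8 lay at or below the B cell share, and the other 5 lay between 12.3 and 18.3%, highest in Neut_Ifit3 cells. The part of background in these shares was not tested. The UMIs were not evenly carried in all of the 8. In Mac_Cd81 cells 4 of 409 held 50% of 1156 Ccl5 UMIs, and in Mon_Thbs1 cells the top 12 of 1109 held 46.9% of 725. B cells were uneven too, with the top 11 of 1055 holding 40.3% of 457. The source of the Ccl5 UMIs in these cells was not tested.

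For Ccl4 the B cell share, whose source was not tested, was lower at 1.80% (1.16 to 2.80%), or 3.41% without thinning. Against it, Ccl4 was seen in 71.9% of 139 Neut_PMN-MDSC cells (64.0 to 78.7%), 40.6% of T_CD8_Lag3, 31.5% of NK_Ncr1 (38.5% without thinning), 26.3% of Mac_Isg20, 20.5% of T_CD8_Gzma, 18.0% of Mon_Thbs1 and 10.5% of Neut_Ptgs2 cells. Ccl3 was seen in 77.7% of Neut_PMN-MDSC cells (70.1 to 83.8%), 18.4% of T_CD8_Lag3, 17.0% of Mac_Isg20, 12% of Mac_Gpnmb, 9.34% of NK_Ncr1, 8.21% of Mon_Thbs1 and 5.76% of Neut_Ptgs2 cells, and in 0.474% of B cells. Intervals cover counting error alone.

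In NK_Ncr1 and Neut_Ptgs2 cells a few cells held most of the Ccl4 and Ccl3 transcripts, while Ccl5 was spread more evenly over NK_Ncr1, T_CD8_Gzma and T_CD8_Gzmk cells. In NK_Ncr1 cells, 50% of all Ccl4 UMIs were in 86 of 2312 cells, and the top 232 cells held 73.4% of them, against 37.3% for Ccl5. The top 10% of cells held 34.0% of Ccl5 UMIs in T_CD8_Gzma and 42.7% in T_CD8_Gzmk cells, but 57.5% in T_CD8_Lag3 and 62.4% in DC_migDC cells. A single NK_Ncr1 cell had 610 Ccl4 UMIs. In Neut_Ptgs2 cells the concentration was sharper, since 12 of 1492 cells held 50% of the Ccl4 UMIs and 14 cells 50% of the Ccl3 UMIs. Neut_PMN-MDSC cells were less uneven than Neut_Ptgs2 cells, with the top 14 of 139 cells holding 40.3% of Ccl3 and 53.0% of Ccl4 UMIs.

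In most labels with many positive cells, Ccl3 and Ccl4 were seen in the same cells more often than their shares give if independent. After thinning, 58 of 347 T_CD8_Lag3 cells had both, against 26.0 if independent, and 90.6% of the Ccl3-positive cells were also Ccl4-positive. The counts were 51 against 9.05 in Neut_Ptgs2 cells, 46 against 22.1 in Mac_Isg20 cells, 33 against 16.4 in Mon_Thbs1 cells, 103 against 68.0 in NK_Ncr1 cells and 85 against 77.7 in Neut_PMN-MDSC cells. T_CD8_Gzma cells were an exception, with 1 cell against 2.05, from 10 cells with Ccl3 and 77 with Ccl4. Ccl4 and Ccl5 gave 721 against 720 in NK_Ncr1 cells, where nearly every cell had Ccl5, and 103 against 85.7 in T_CD8_Lag3 cells. Cells of all samples were pooled for these counts, so differences between samples enter them.

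The UMIs of the 3 genes were shared out differently over the tissues. Of 182168 Ccl5 UMIs, NK_Ncr1 cells held 97277 and T_CD8_Gzmk cells 20.8%, T_CD8_Gzma cells 12.2% and T_CD8_Lag3 cells 3.87%. Of 29140 Ccl4 UMIs, NK_Ncr1 cells held 27.4%, Neut_Ptgs2 cells 13.8% and Neut_PMN-MDSC cells 10.9%, the last from 0.593% of the cells. The core of mouse 17 gave 6054 of these UMIs, and without it the shares were 31.1%, 5.77% and 8.56%. Of 7830 Ccl3 UMIs, Neut_PMN-MDSC cells held 18.4% and NK_Ncr1 cells 14.6%, or 15.4 and 16.4% without that core.

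By tissue, in samples with at least 20 UMIs of the gene, NK cells held a mean of 57.5% of Ccl4 UMIs in control lungs (n = 3), 74.3% in relapse-free lungs (n = 6), 40.4% in Pre-MET lungs (n = 3, from 4.84 to 62.7%), 42.0% in distal normal tissue (n = 9), 39.5% in margins (n = 6), 21.1% in metastases (n = 12), 17.7% in cores (n = 13) and 3.17% in primary tumors (n = 4). T cells held 30.4% in cores and 8.02% in distal normal tissue, and macrophages 21.9% in metastases and 4.77% in distal normal tissue. DCs held a mean of 41.4% of the Ccl5 UMIs of primary tumors (24.3 to 58.7%), against means of 0.58 to 5.17% in the lung tissues. Single samples overlapped, with up to 31.1% in a metastasis. DCs were a mean of 11% of the cells of primary tumors and 2.57 to 5.66% of those of lung tissues. In the pooled primary tumors 49 DC_migDC cells, 3.15% of the cells, held 40.1% of the Ccl5 UMIs. That label reached 10 cells in primary tumors alone, in 3 samples, so its level elsewhere is not given.

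**Figure D2:**
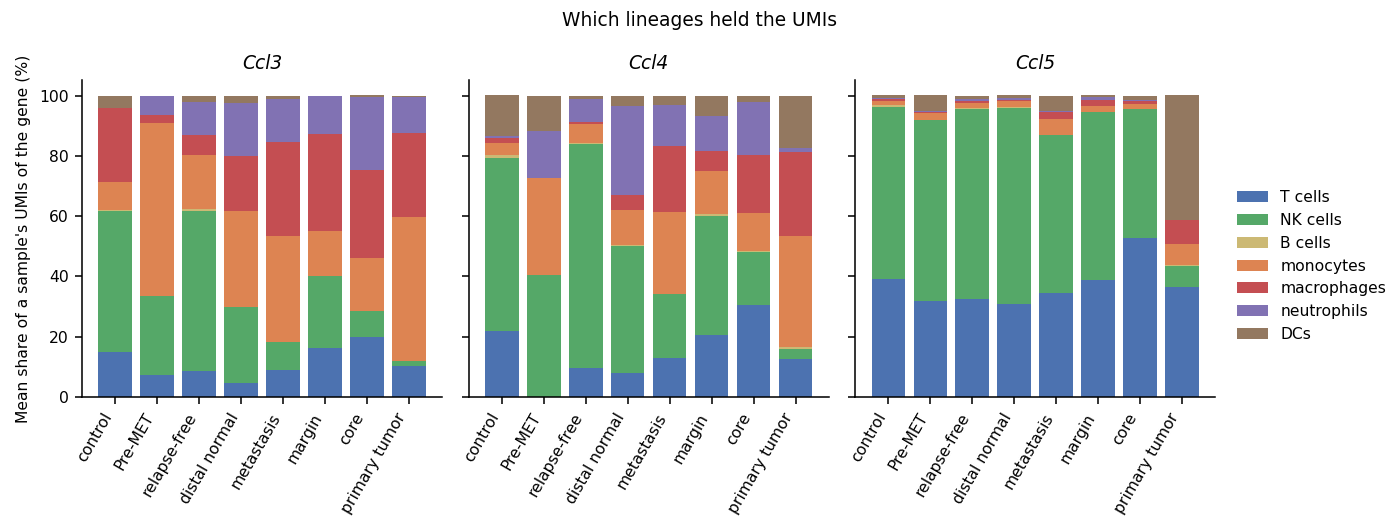
Mean share (%) of a sample's UMIs of each gene held by 7 lineages (stacked colours), by tissue, over samples with at least 20 UMIs of the gene. T and NK cells hold most of Ccl5 in every lung tissue, and DCs 41.4% of it in primary tumors, while the holders of Ccl3 and Ccl4 differ between tissues.

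In mice with at least 20 UMIs of a gene in both tissues, 21 shares were compared between distal normal tissue and metastasis by exact sign-flip permutation tests, two-sided. After Benjamini-Hochberg adjustment over the 21, the macrophage share of Ccl5 passed, with 0.324 ± 0.571% in distal normal tissue and 2.16 ± 3.69% in metastasis (higher in 11 of 13 mice, adjusted p = 0.041 by the exact permutation test). It did not pass with cells of at least 1000 UMIs (adjusted p = 0.148). Macrophages were 5.77% of the cells of distal normal tissue and 14.4% of those of metastases, and their part in this share was not tested. The NK share of Ccl4 was lower in 7 of 8 mice, by 19.7 percentage points, with an adjusted p of 0.273 in the same exact permutation test.

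The first tissue question was how metastases differed from normal tissue of the same lungs. Summed over all immune cells, Ccl3 was at 63.5 ± 39.7 CPM in distal normal tissue (n = 14; lowest 0, median 58.8, highest 161) and 219 ± 116 CPM in metastases (n = 13; lowest 41.4, median 229, highest 436). The groups overlapped, but Ccl3 was higher in the metastasis in 13 of 13 mice, by a mean of 1.69 ± 0.328 (SE) on the log2(CPM + 10) scale, or 3.23-fold (exact sign-flip permutation p = 0.000244, the smallest possible, adjusted p = 0.00168 over the 12 tests of this kind). It was higher in all 9 mice whose tissues shared a sequencing batch. Some of these values rest on few UMIs. Distal normal tissue of mouse 32 held 0 Ccl3 UMIs, and mouse 34 held 3 there and 2 in its metastasis (32.8 and 41.4 CPM). Macrophages were 5.77% of cells in distal normal tissue and 14.4% in metastases, and what this shift adds to the Ccl3 rise was not tested. Within macrophages Ccl3 was at 234 ± 158 and 361 ± 216 CPM, and within monocytes at 49.8 ± 40.4 and 171 ± 140 CPM. The groups overlapped in both. Neither of these 2 differences was called in the fits given below. With Mac_Isg20 cells left out, in 5 distal normal and 9 metastasis sums, the macrophage log2 fold change was 0.36 ± 0.665 (edgeR, adjusted p = 0.773).

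Ccl4 rose as well, from 299 ± 201 CPM (70.2 to 774) to 606 ± 268 CPM (145 to 920). It was higher in 11 of 13 mice, by 1.12 ± 0.313 log2 units or 2.18-fold (exact permutation, adjusted p = 0.00366), and in 7 of the 9 mice with a shared batch. Ccl5 was at 3451 ± 2201 CPM in distal normal tissue and 2668 ± 1657 CPM in metastases, a log2 difference of -0.24 ± 0.196 that did not pass (exact permutation, adjusted p = 0.292; 5 mice higher and 8 lower).

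**Figure D3:**
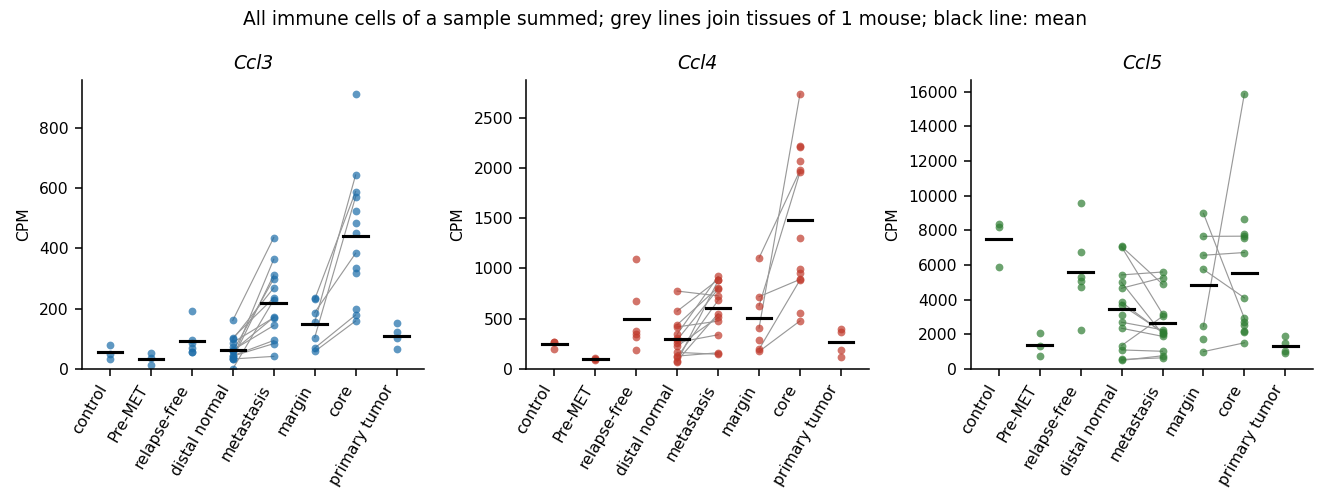
CPM (y axis) of each gene over all immune cells of a sample (points) in 8 tissues (x axis), with means as black lines and grey lines joining 2 tissues of a mouse. Ccl3 rises from distal normal tissue to metastasis in 13 of 13 mice, some of them with few UMIs. Cores have the highest means of Ccl3 and Ccl4, at 442 and 1479 CPM.

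Within lineages, where sums per sample of T cells, NK cells, monocytes, macrophages and neutrophils were fitted apart with edgeR's quasi-likelihood test, 8 of 15 pairs of gene and lineage had enough UMIs to be tested and 2 were called higher in metastasis at an adjusted p below 0.05. Both were Ccl4, in monocytes and in macrophages. The same threshold called 1.33% of 2098 genes in monocytes and 9.54% of 1289 in macrophages, and 0% in T cells, 0% in NK cells and 0% in neutrophils, where 14, 13 and 26 genes had an unadjusted p below 0.05 and DESeq2 called 1, 0 and 0. Of the 8, 4 had an unadjusted p below 0.05, and DESeq2 also called 2. Over all genes, 166 of 2098 in monocytes and 296 of 1289 in macrophages had such a p, and DESeq2 called 51 and 148. Ccl5 in monocytes, at 103 ± 71.6 and 201 ± 165 CPM, was 1.01 ± 0.427 log2 units apart (edgeR, adjusted p = 0.422), and 1.36 apart with sequencing batch as a covariate, which gained a call (adjusted p = 0.0337).

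In monocytes Ccl4 had a lowest, median and highest level of 0, 110 and 366 CPM in distal normal tissue (n = 14) and of 33.1, 449 and 811 CPM in metastases (n = 13). The groups overlapped, the log2 fold change was 2.03 ± 0.399 (SE), and the adjusted p in edgeR was 0.00211. In macrophages the values were 0, 37.3 and 793 CPM (n = 6) against 69.4, 740 and 1513 CPM (n = 9), a log2 fold change of 2.32 ± 0.713 with an adjusted p of 0.0369 in edgeR. Only 24 UMIs lay behind the 6 distal normal sums, of which mouse 23 gave 14, and 3 of these sums held 0. Ccl4 in macrophages therefore passed the filter on low counts only with the metastases, where it was higher. With samples of at least 20 cells the difference was 0.77 (edgeR, adjusted p = 0.713). Without mouse 17 the adjusted p was 0.0613, and with cells of at least 1000 UMIs it was 0.17.

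The make-up of both lineages differed between the tissues. Mon_Thbs1 cells were 5.28 ± 4.77% of monocytes in distal normal tissue and 25.5 ± 18.8% in metastases, and Mac_Isg20 cells were 7.19 ± 4.53% and 39.2 ± 18.0% of macrophages. Ccl4 was among the highest in these labels of their lineages, at 1177 ± 832 CPM in Mon_Thbs1 cells of metastases (n = 10) and 1830 ± 1777 CPM in Mac_Isg20 cells of metastases (n = 8). The change of make-up and a change within cells cannot be told apart in sums over a lineage, and neither label had 3 distal normal sums for a fit of its own.

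Neither lymphocyte lineage showed a called change. Ccl5 in NK cells was at 31416 ± 5870 CPM (23994 to 39625; n = 7) and 24756 ± 3300 CPM (19831 to 30207; n = 8), overlapping groups with a log2 fold change of -0.35 ± 0.199 (edgeR, adjusted p = 0.997). Ccl5 in T cells differed by 0.29 ± 0.318 (adjusted p = 0.992). Ccl4 in neutrophils was at 341 ± 286 and 941 ± 775 CPM, 1.24 ± 0.496 apart on the log2 scale (adjusted p = 0.993), and 0.48 ± 0.487 apart with Neut_PMN-MDSC cells left out. Ccl4 in T cells was too low to be tested in this fit, but 1 of 13 metastases, from mouse 26 with 14 T cells, held 14985 CPM of Ccl4 and 4427 CPM of Ccl3, against at most 1125 and 281 CPM in the others.

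Within labels, 5 of 27 pairs could be tested between these tissues, and 0 were called by edgeR or by DESeq2, with 0 at an unadjusted p below 0.05. Over all genes 0.202% were called in T_CD4_S100a4 cells, and 0% in Neut_Ptgs2, 0% in NK_Ncr1 and 0% in T_CD8_Gzmk cells, where 18, 9 and 6 genes had an unadjusted p below 0.05 and DESeq2 called 0 in each. Ccl5 in NK_Ncr1 cells was at 33198 ± 7953 and 28118 ± 4758 CPM (log2 fold change -0.24 ± 0.205), and in T_CD8_Gzmk cells at 17624 ± 6130 and 17004 ± 3179 CPM (-0.09 ± 0.255).

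Receptors and other CC ligands, on a list chosen with these data known, gave 16 tests of gene and lineage, of which 1 was called higher and 1 lower in metastasis. Ccl2, a ligand that draws monocytes, rose in monocytes from 98.9 ± 63.5 to 338 ± 293 CPM, a log2 fold change of 1.88 ± 0.445 (edgeR, adjusted p = 0.0176). Ccl6, another CC ligand, fell in macrophages, from 7950 ± 4510 to 2870 ± 974 CPM (-1.23 ± 0.320, adjusted p = 0.015). Mac_Cd9 cells, whose Ccl6 mean was 8953 CPM over all tissues, were 63.6 ± 25.2% of macrophages in distal normal tissue and 7.65 ± 8.88% in metastases, and the part of this shift in the Ccl6 result was not tested.

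Genes that respond within minutes to activation or to tissue digestion were followed because Ccl3 and Ccl4 are such genes too. Of 32 tests of immediate early and heat shock genes, 2 were called higher in metastasis, Hspa1a (from 20.1 to 406 CPM, log2 fold change 3.97 ± 0.848) and Hspa1b (from 6.22 to 224 CPM, 4.89 ± 1.14), both in macrophages, where Ccl4 also rose. They encode heat shock protein 70. Of the 32, 8 had an unadjusted p below 0.05 in edgeR, and DESeq2 called 2. In macrophages 6 of 9 of these genes had such a p, as did 296 of all 1289 genes tested there. Their median log2 fold change was 0.86, against 0.15 over all genes. Their part in the Ccl4 result was not tested. Of 11 tests of NF-κB targets, 6 of cytotoxic granule genes and 2 of effector cytokines, 0 passed in edgeR or DESeq2, and 2, 0 and 0 had an unadjusted p below 0.05.

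The second question was what a distant primary tumor goes with in the lung before metastasis. Over all immune cells, Ccl5 was at 8384, 5895 and 8180 CPM in control lungs and at 1340, 2041 and 742 CPM in Pre-MET lungs, with no overlap and a difference of -2.54 ± 0.450 log2 units, or 5.80-fold. Ccl4 was at 199, 272 and 268 CPM and at 110, 98.0 and 84.0 CPM, also without overlap (-1.25 ± 0.173). Ccl3 was at 50.3, 80.7 and 33.2 CPM and at 34.4, 12.8 and 51.5 CPM, and the groups overlapped. With 3 lungs against 3 the exact permutation test cannot go below p = 0.1, which Ccl4 and Ccl5 reached, with an adjusted p of 0.133. NK cells were 17.4% of immune cells in control lungs and 4.66% in Pre-MET lungs, and monocytes 17.9% and 54.0%, so fewer Ccl5-rich cells and less Ccl5 per cell cannot be told apart in these sums.

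Within lineages, 2 of 7 tests were called lower in Pre-MET lungs by edgeR, Ccl5 in T cells and Ccl5 in monocytes, against 2.33% of 3218 genes in T cells, 4.32% of 4953 in monocytes, 0% of 1579 in NK cells and 1.06% of 377 in neutrophils. Among NK cell genes, 137 had an unadjusted p below 0.05 and DESeq2 called 0. Macrophages of Pre-MET lungs did not reach 10 cells in any sample.

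Ccl5 in T cells was at 12508, 6816 and 6995 CPM in control lungs and 4052, 3496 and 1581 CPM in Pre-MET lungs. The groups did not overlap, and the log2 fold change was -1.49 ± 0.303 with an adjusted p of 0.0337 in edgeR. How many of all genes had groups without overlap was not counted, so lack of overlap is a description. That call was lost without control lung 1, 2 or 3 or without Pre-MET lung 8 or 9 (adjusted p from 0.0591 to 0.142), and with cells of at least 1000 UMIs (-1.63, adjusted p = 0.185). The labels T_CD8_Gzma, T_CD8_Gzmk and T_CD8_Lag3 were 8.05%, 19.0% and 0.711% of T cells in control lungs and 2.00%, 12.4% and 0.340% in Pre-MET lungs. With T_CD8_Gzma cells left out, the log2 fold change was -1.07 ± 0.225 (adjusted p = 0.0487). Within T_CD8_Gzmk cells Ccl5 was at 25112 ± 399 CPM in control and 17645 ± 6819 CPM in Pre-MET lungs (n = 3 each, described only).

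Ccl5 in NK cells was at 28818 ± 1823 and 26110 ± 5915 CPM, a log2 fold change of -0.37 ± 0.184 that did not pass (edgeR, adjusted p = 0.603), although it passed without the filter on low counts (-0.86, adjusted p = 0.000782) and with cells of at least 1000 UMIs (-0.62, adjusted p = 0.0107). Ccl3 and Ccl4 in NK cells differed by -0.16 ± 0.875 and 0.05 ± 0.403. In T cells Ccl4 had 165 UMIs over the control lungs and 0 over the Pre-MET lungs, where a count of 0 allows up to 3, and it was too low to be tested.

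The largest fold change among these fits was in cells with little Ccl5. In monocytes Ccl5 was at 508, 267 and 610 CPM in control lungs and 53.7, 64.1 and 28.4 CPM in Pre-MET lungs, with no overlap, a log2 fold change of -3.27 ± 0.361 and an adjusted p of 8.38e-05 in edgeR. The make-up of the monocytes differed as well, with Mon_Ace cells at 59.0 ± 4.14% and 22.6 ± 4.01% and Mon_Fn1 cells at 23.8 ± 0.944% and 69.6 ± 5.65% of them. Within Mon_Ace cells Ccl5 was at 476 ± 139 and 79.7 ± 68.2 CPM, and within Mon_Fn1 cells at 379 ± 119 and 43.4 ± 12.5 CPM (n = 3 each, described only). Neutrophils gave 481, 439 and 885 CPM against 81.5, 101 and 56.7 CPM (-2.90 ± 0.755, edgeR adjusted p = 0.157, DESeq2 adjusted p = 0.0378), with Neut_Ptgs2 cells at 80.2 ± 6.95% and 33.0 ± 14.4% of them. B cells gave 571, 425 and 1265 CPM against 52.7, 31.1 and 0 CPM.

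In monocytes, 2 cytotoxic granule genes, Gzma (125 ± 49.5 to 21.3 ± 8.03 CPM, -2.55 ± 0.541) and Nkg7 (123 ± 39.6 to 20.8 ± 10.2 CPM, -2.58 ± 0.551), fell too in the same edgeR fit. The monocyte level was 4.53 to 7.45% of the level over all cells in control lungs and 3.14 to 4.01% in Pre-MET lungs. Wells left empty held 42 Ccl5 UMIs in 592 wells, 4947 CPM of their few UMIs. The part of free or carried-over RNA in the monocyte and neutrophil results was not tested, and because control lungs share no sequencing batch with other tissues, batch and group cannot be told apart in any of these comparisons.

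Of the receptor and ligand list, 1 of 12 tests was called: Ccr1, a receptor of Ccl3 and Ccl5, rose in Pre-MET monocytes from 10.3 ± 9.14 to 69.7 ± 27.5 CPM (2.82 ± 0.760, adjusted p = 0.0455 in edgeR). DESeq2 called 0 of the 12. Of 22 tests of immediate early genes 2 were called lower, Nr4a1 (-1.26 ± 0.188) and Dusp1 (-0.68 ± 0.150) in monocytes, and so was 1 of 11 NF-κB target tests, Cd83 in monocytes (-2.22 ± 0.521). These are sums over the changed make-up of monocytes given above. Over all tissues Ccr1 had a mean of 50 CPM in Mon_Ace and 163 CPM in Mon_Fn1 cells, and Nr4a1, which is also a factor of patrolling monocytes, 953 and 519 CPM. The part of the make-up in these calls was not tested.

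Primary tumors and metastasis cores are both tumor tissue of the same cell line at different sites. They also differed in sort gate, dissociation program and UMIs per cell, which cannot be told apart from site here. All 3 chemokines were higher in cores over all immune cells. Ccl3 was at 151, 65.8, 122 and 103 CPM in the 4 primary tumors and at 159 to 913 CPM in the 13 cores, with a median of 450. The groups did not overlap, at 1.80 ± 0.309 log2 units or 3.48-fold (exact permutation p = 0.00042, the smallest possible, adjusted p = 0.00168). Ccl4 was at 192, 122, 367 and 393 CPM against 477 to 2738 CPM, also without overlap, 2.37 ± 0.444 log2 units or 5.16-fold (adjusted p = 0.00168 in the same exact permutation test).

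Ccl5 was at 1515, 1041, 922 and 1894 CPM against 1503 to 15883 CPM, 1.77 ± 0.372 log2 units or 3.40-fold (exact permutation, adjusted p = 0.0131), with groups that overlapped. With cells of at least 1000 UMIs the Ccl5 difference was 0.81 (adjusted p = 0.443), and without primary tumor 9 or 10 the adjusted p was 0.0536. The sequencing batch of primary tumor 8 also held cores 36 and 37. Within it, the tumor and the cores had 151 against 589 and 913 CPM of Ccl3, 192 against 1975 and 2207 CPM of Ccl4, and 1515 against 4095 and 2118 CPM of Ccl5. NK cells were 2.89% of immune cells in primary tumors and 12.9% in cores.

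Within lineages 2 of 14 tests were called higher in cores by edgeR, Ccl3 in macrophages and Ccl5 in NK cells, while 9 had an unadjusted p below 0.05 and DESeq2 called 6. Of the 9, 1 went the other way: Ccl5 in macrophages was at 423 ± 300 CPM in primary tumors and 184 ± 223 CPM in cores, overlapping groups with a log2 fold change of -1.42 ± 0.580 (edgeR, adjusted p = 0.188), and it was called lower with no filter on low counts (-1.74, adjusted p = 0.0185). The share of all genes called was 0.501% in T cells, 1.03% in NK cells, 1.47% in monocytes, 4.58% in macrophages and 0% in neutrophils, where 53 genes had an unadjusted p below 0.05 and DESeq2 called 12. In T cells, NK cells, monocytes and macrophages, 342 of 2197, 108 of 1070, 223 of 1835 and 351 of 2162 genes had an unadjusted p below 0.05. DESeq2 called 98, 12, 80 and 172 genes there.

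Ccl3 in macrophages was at 93.4, 145, 124 and 129 CPM in primary tumors and at 243 to 1079 CPM in cores (median 549, n = 10). No core was as low as a primary tumor, and the log2 fold change was 2.21 ± 0.396 (adjusted p = 0.00148). With sequencing batch in the model it was 2.64 (adjusted p = 0.237), and within the shared batch the values were 93.4 against 653 and 389 CPM. Mac_Isg20 cells were 14.6 ± 4.79% of macrophages in primary tumors and 56.4 ± 18.7% in cores. With these cells left out the difference was 1.44 ± 0.597 (adjusted p = 0.203). Ccl4 in macrophages, at 0 to 586 CPM in primary tumors and 227 to 4030 CPM in cores, was 4.43-fold higher, with an adjusted p of 0.056 in edgeR and 0.0103 in DESeq2, and with Mac_Isg20 cells left out its difference was 0.18 ± 0.655. Ccl4 in neutrophils was at 636 and 0 CPM in 2 primary tumors and at 761 to 29915 CPM in 6 cores, without overlap, at an adjusted p of 0.16 in edgeR and 0.0118 in DESeq2.

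Ccl5 in NK cells was at 5333 and 4260 CPM in the 2 primary tumors with enough NK cells and at 9841 to 44949 CPM in 11 cores (median 22016). The groups did not overlap, and the log2 fold change was 2.08 ± 0.546 (edgeR, adjusted p = 0.0445). NK_Xcl1 cells, the label low in Ccl5, were 59.6 ± 13.6% of the NK cells of these primary tumors and 17.3 ± 12.8% in cores, so the call rests on sums of different make-up. Xcl1 itself fell from 4280 ± 4830 to 1000 ± 961 CPM in the same fit (-2.28 ± 0.569). Leaving out primary tumor 10 or 38 leaves 1 tumor, assumed to vary like the cores, with differences of 2.14 and 1.97 (adjusted p = 0.682 and 0.306), which does not test stability. The call was also lost with cells of at least 1000 UMIs (2.07, adjusted p = 0.471), with at least 20 cells per sample (2.25, adjusted p = 0.59), without mouse 17 (0.0909) and with the DESeq2-type scaling of edgeR (0.0509), and no core shares a batch with these tumors.

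In T cells, Ccl4 was at 193, 33.7, 53.3 and 755 CPM in primary tumors and 52.6 to 2681 CPM in cores (median 1436), 2.29 ± 0.606 log2 units apart, and Ccl5 at 6231, 2383, 3158 and 2596 CPM and 4855 to 15673 CPM, 1.16 ± 0.322 apart. Both had an adjusted p of 0.0544 in edgeR, and 0.0323 and 0.0122 in DESeq2. Without primary tumor 38 the Ccl4 difference was 3.89 (adjusted p = 0.00196), so its size rests on that tumor, and without primary tumor 8 the Ccl5 difference was 1.55 (adjusted p = 0.0399). From primary tumors to cores, T_CD8_Gzmk cells went from 16.0 ± 2.26% to 34.6 ± 9.40% of T cells, T_CD8_Lag3 from 6.46 ± 3.95% to 16.2 ± 11.6%, T_CD8_Gzma from a median of 0% to 3.09%, and T_Treg from 21.5 ± 8.64% to 6.32 ± 4.29%. Of these shifts, that of T_CD8_Lag3 cells alone was tested. With T_CD8_Lag3 cells left out, the Ccl5 difference was 1.42 ± 0.293 (adjusted p = 0.0076) and the Ccl4 difference 1.91 ± 0.640 (adjusted p = 0.104).

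Within labels, 1 of 10 tests was called, Ccl4 in Mon_Thbs1 cells. Over all genes 8% were called in Mac_Cd81, 0.59% in Mon_Fn1, 1.36% in Mon_Thbs1, 0.99% in T_CD4_Lef1, 0.681% in T_CD4_S100a4 and 0% in T_CD8_Gzmk cells, where 98 genes had an unadjusted p below 0.05 and DESeq2 called 34. Ccl4 in Mon_Thbs1 cells was at 0 to 469 CPM in 4 primary tumors (mean 261 ± 198) and at 741 to 1919 CPM in 8 cores (mean 1339 ± 470), with no overlap and a log2 fold change of 2.25 ± 0.571 (edgeR, adjusted p = 0.0375). Mon_Thbs1 cells were 37.8 ± 9.20% and 43.7 ± 23.8% of monocytes in these tissues. The call was lost without primary tumor 8, 10 or 38 (adjusted p 0.105, 0.0724 and 0.0891). Ccl5 in T_CD8_Gzmk cells also had no overlap, at 7681 to 9261 CPM in 3 primary tumors and 10039 to 19588 CPM in 11 cores, with a log2 fold change of 0.55 ± 0.312 that did not pass (edgeR, adjusted p = 0.352).

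Of 24 receptor and ligand tests, 2 were called higher and 1 lower in cores, all in macrophages. Ccl2 (539 ± 293 to 2920 ± 2320 CPM, 2.41 ± 0.686) and Ccl6 (797 ± 475 to 3250 ± 1670 CPM, 2.03 ± 0.466) rose, and Ccl8, a CC ligand that attracts monocytes, fell from 2960 ± 2300 to 65.5 ± 131 CPM (-5.40 ± 0.768, adjusted p = 0.000236). Mac_Cd81 cells, whose Ccl8 mean was 1466 ± 2267 CPM over all tissues against at most 64.2 CPM in other macrophage labels, made up 80.9 ± 7.94% of primary tumor macrophages and 19.7 ± 9.08% of those of cores. What this shift adds to the Ccl8 value was not tested. Of 39 immediate early gene tests 1 passed, Egr1 in macrophages (2.20 ± 0.588), and of 13 NF-κB target tests 1, Nfkbia in macrophages (1.83 ± 0.523), the lineage in which Ccl3 rose. Of the 39, 11 had an unadjusted p below 0.05 in edgeR, and DESeq2 called 5. In NK cells, where Ccl5 was called, 5 of 7 immediate early genes had such a p, and DESeq2 called 2. Their median log2 fold change there was 2.45, against -0.01 over all genes. Their part in the Ccl5 result was not tested.

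**Figure D4:**
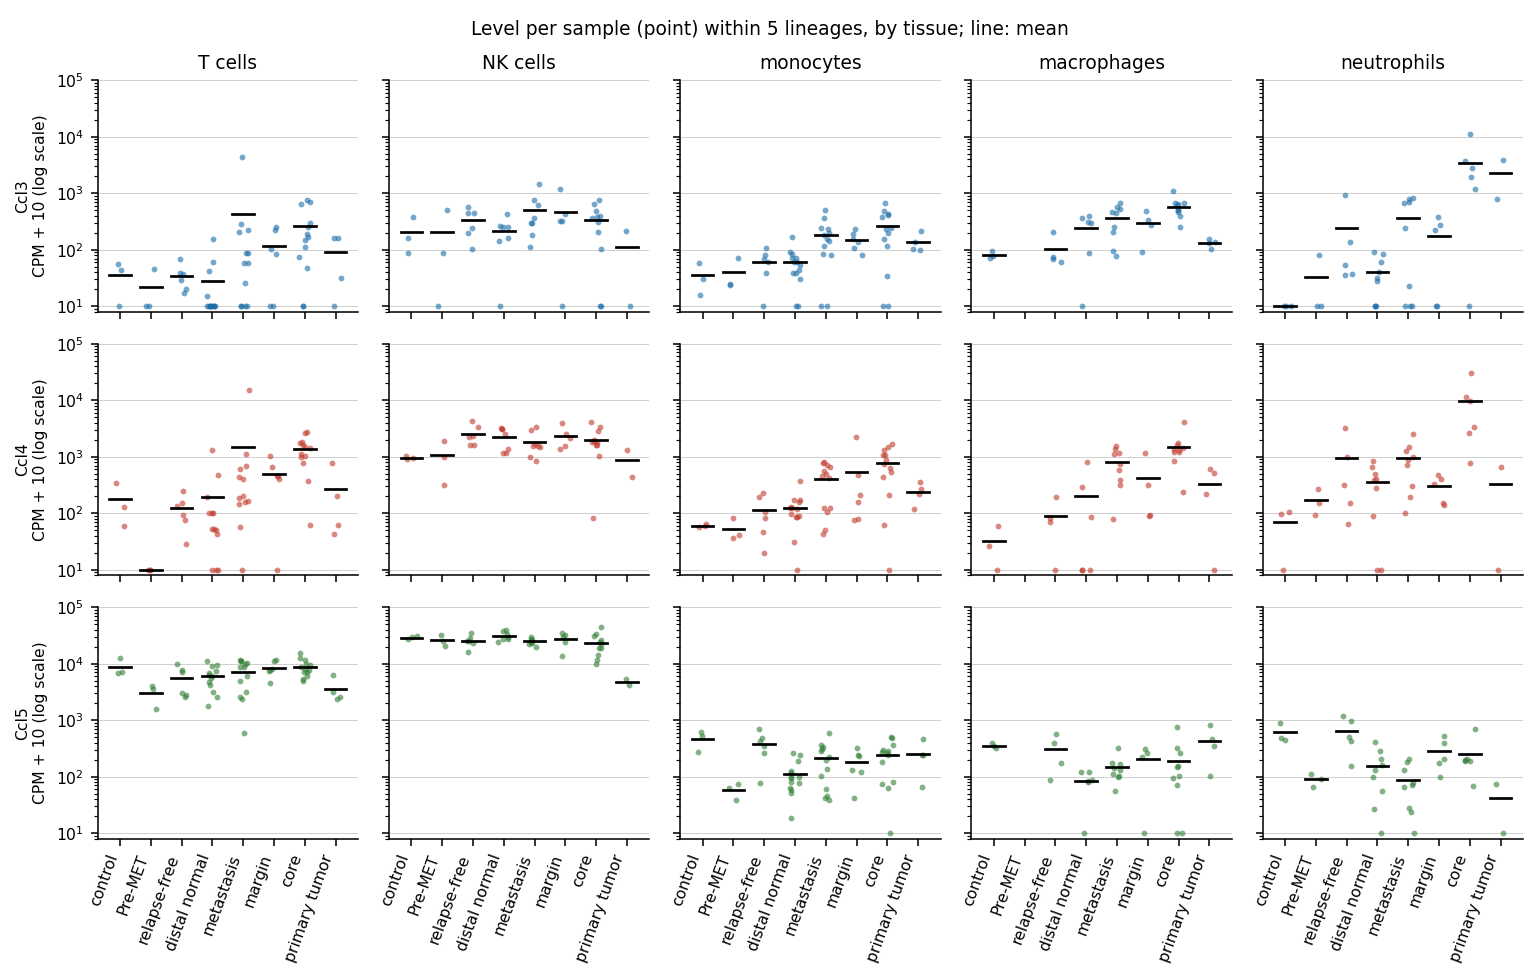
CPM + 10 on a log scale (y axis) of Ccl3, Ccl4 and Ccl5 (rows of panels) in T cells, NK cells, monocytes, macrophages and neutrophils (columns) by tissue (x axis), with 1 point per sample of at least 10 cells and the mean as a black line. Ccl5 in NK cells lies between 9841 and 44949 CPM in every lung sample, and Ccl4 in neutrophils is highest in cores, with a mean of 9603 CPM.

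The last question was how the core of a metastasis differs from its margin. Over all immune cells Ccl3 was at 644 CPM in the core and 155 in the margin of mouse 17, 179 and 68.9 in mouse 26, 572 and 104 in mouse 28, 384 and 187 in mouse 31, 159 and 57.6 in mouse 32, and 589 and 231 in mouse 36. The core was higher in 6 of 6 mice, by 1.54 ± 0.211 log2 units or 2.91-fold. Ccl4 was also higher in the core in 6 of 6, by 2.84-fold. With 6 pairs the exact sign-flip permutation test cannot go below p = 0.0312, which both genes reached, and the adjusted p was 0.0536. Without pairing, over 7 margins and 13 cores, the adjusted permutation p was 0.00182 and 0.00257. That test treats samples of the same mouse as independent, so the paired result is the one to read. The pairs include mouse 17, whose margin carried the target NON-MET. Ccl5 was higher in the core in 4 of 6 mice, by 0.20 ± 0.583 (exact permutation, adjusted p = 0.656). Both tissues of each mouse were in 1 sequencing batch.

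Within lineages 1 of 13 tests was called by edgeR, Ccl4 in neutrophils, which was the only gene called among 216 there (0.463%). The share called was 0% in T cells, 0% in NK cells, 0.195% in monocytes and 0% in macrophages, with 23, 0 and 177 genes at an unadjusted p below 0.05 in T cells, NK cells and macrophages and 0, 0 and 26 called by DESeq2.

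Ccl4 in neutrophils was at 465, 143, 390, 130 and 326 CPM in the margins of mice 17, 26, 28, 31 and 36 and at 11470, 761, 29915, 2597, 9512 and 3366 CPM in the cores of mice 17, 26, 28, 30, 36 and 37. Every core exceeded every margin, and in each of the mice 17, 26, 28 and 36 the core was the higher of the pair. The log2 fold change was 4.94 ± 0.824 (adjusted p = 0.00632). Without the core of mouse 28 it was 4.18 ± 0.642 (adjusted p = 0.0043), and with sequencing batch in the model 5.11 (adjusted p = 0.0813). Of these margins and cores, 3 and 4 rested on fewer than 30 neutrophils.

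Ccl3 in neutrophils showed a like difference, at 217, 0, 0, 261 and 366 CPM in margins and 2819, 0, 11226, 1204, 3720 and 1933 CPM in cores. The core of mouse 26 had no Ccl3 UMI, so the groups overlapped. The log2 fold change was 4.39 ± 1.09 (edgeR, adjusted p = 0.0629), and with the mouse as a block, since both tissues come from the same animals, it was 4.22 with an adjusted p of 0.00185, so that 2 of 13 tests then passed.

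Neut_PMN-MDSC cells, the label richest in both genes, were 19.9% of neutrophils at the median of 6 cores and 0% at that of 5 margins (mean 0.466%). With these cells left out, the Ccl4 difference was 4.49 ± 1.02 (adjusted p = 0.118), and Ccl3 was too low to be tested. Neut_Ptgs2 cells made up 41.3 ± 17.4% of neutrophils in cores and 46.1 ± 31.5% in margins. In that label Ccl4 was at 16555, 24765 and 5275 CPM in the cores of mice 17, 28 and 37 and at 334 and 360 CPM in the margins of mice 17 and 36. Its mean was 930 ± 1059 CPM in Neut_Ptgs2 cells of metastasis sections (n = 6), 498 ± 774 in distal normal tissue (n = 6), 265 ± 173 in relapse-free lungs (n = 5), 139 ± 156 in Pre-MET lungs and 83.9 ± 74.6 in control lungs (n = 3 each). Ccl3 in the same label was at 3248, 9287 and 886 CPM in the cores and 127 and 405 CPM in the margins. With 2 margins these levels in Neut_Ptgs2 cells are a description.

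Other lineages had smaller differences between core and margin. Ccl4 in T cells was 1.45 ± 0.481 log2 units higher in the core and Ccl4 in macrophages 1.72 ± 0.640, with adjusted p-values of 0.998 and 0.312 in edgeR. Ccl4 in monocytes differed by 0.45 ± 0.639, and by 2.19 ± 0.655 (adjusted p = 0.128) without the margin of mouse 36, whose 39 monocytes held 2202 CPM. Ccl5 differed by 0.03 ± 0.258 in T cells and -0.30 ± 0.332 in NK cells. Of 19 receptor and ligand tests and 53 tests of immediate early, effector cytokine, NF-κB target and cytotoxic genes, 0 passed in edgeR, with 6 and 3 at an unadjusted p below 0.05 and 3 and 0 called by DESeq2.

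**Figure D5:**
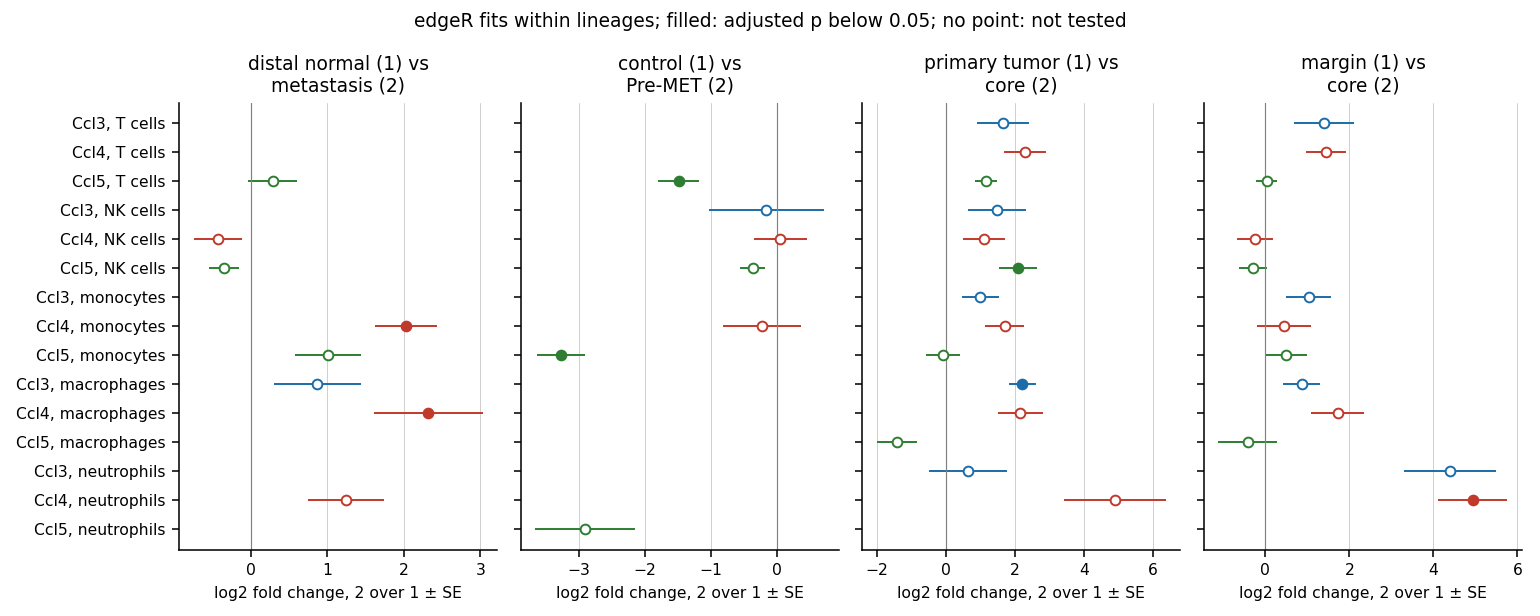
log2 fold change of group 2 over group 1 with its standard error (x axis) for each gene and lineage (y axis) in 4 tissue comparisons, from edgeR, filled where the adjusted p is below 0.05 and left out where the gene was too low to test. The largest called value is Ccl4 in neutrophils, core over margin, at 4.94 ± 0.824, and the lowest is Ccl5 in monocytes, Pre-MET over control, at -3.27 ± 0.361.

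No primary tumor had 10 NK_Ncr1 cells. In the other 7 tissues, Ccl5 in NK_Ncr1 cells had means of 26240 CPM in relapse-free lungs, 27193 in Pre-MET lungs, 28118 in metastases, 29157 in cores, 29328 in control lungs, 33198 in distal normal tissue and 33805 in margins, all within 1 SD of each other's nearest neighbour. Ccl4 in the same cells had lower means in control lungs (949 ± 85.9 CPM, n = 3) and Pre-MET lungs (1166 ± 974, n = 3) than in the 5 other lung tissues (1993 to 2643 CPM), as a description. Ccl5 in T_CD8_Gzmk cells had means of 8661 ± 855 CPM in primary tumors (n = 3), 14501 ± 3014 in cores (n = 11), 15054 ± 4121 in margins (n = 5), 17004 ± 3179 in metastases (n = 8), 17624 ± 6130 in distal normal tissue (n = 7), 17645 ± 6819 in Pre-MET lungs (n = 3), 18218 ± 6062 in relapse-free lungs (n = 5) and 25112 ± 399 in control lungs (n = 3).

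Ccr1 had its highest label means in Neut_PMN-MDSC cells, at 1096 ± 786 CPM (n = 5), and Neut_Ptgs2 cells, at 1065 ± 360 (n = 29), both among the 6 labels highest in Ccl3 and Ccl4. Ackr2, a scavenger of these ligands, did not exceed a mean of 8.96 CPM in any label.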

How the data were processed

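The deposited values were counts: per the labels and the study's methods, the authors sorted single cells into plates, made 3′ libraries with UMIs, mapped reads to mm10 without multi-mapped reads, and counted UMIs per gene and well. The submitters' processing notes name bcl2fastq 2.15.0.4 and mm10. Cell labels and sequencing batches came from the authors' deposited annotation, which covers 24020 cells, and 595 of them outside the immune labels were left out. Doublets had been excluded in the authors' sort gate and no doublet caller was run. No well was shared between libraries.

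UMIs were summed per mouse, tissue and label or lineage (at least 10 cells). Sums were tested in R 4.3.3 with the quasi-likelihood test of edgeR 4.0.16 (TMM scaling, filterByExpr, two-sided, Benjamini-Hochberg over all genes tested, calls below 0.05), and DESeq2 1.42.0 was an alternative. Only the groups compared entered a fit, lineages needed 2 samples a group and labels 3. Levels over all immune cells were tested by exact permutation on log2(CPM + 10). Lack of overlap between groups is given as a description throughout, since the share of all genes without overlap was not counted. Sums, permutations and figures were made with pandas 2.3.3, matplotlib 3.10.9, scipy 1.17.1 and numpy 2.4.6 under Python 3.11.15. The edgeR fits were tested on simulated counts.

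The genes named were Ccl3, Ccl4 and Ccl5, the called genes of lists of 27 CC chemokine and receptor genes and 23 induced or released genes with Ccr1 and Ackr2, and the 5 genes of nearest profile over labels. Members and lists were chosen with earlier results of these data known. A sample number is a mouse, so samples of a number pair by animal, and their deviations from the group mean correlated (mean r from 0.125 to 0.479 across lineages, against -0.0571 to -0.00896 between other mice). One receptor gene of the list and the coding sequence of Ccl4 are not reported here. Protein sequences were not used here, and coding sequences from the mm10-equivalent GRCm38 annotation were compared in their place.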

Additional observations from a re-analysis of the deposited data

Results flagged for a closer look

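Of 72 groups of 4 to 10 samples, each for 1 gene, 13 had a sample whose gap to its nearest neighbour was large for the range of the group (Dixon's 95% limit). Larger groups were not screened, among them T cells of metastases (n = 13), where the highest Ccl4 was 14985 CPM. About 1 in 20 groups of normally distributed values pass that limit by chance. CPM from few cells need not be so distributed, so 13 of 72 cannot be set against that rate.

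In neutrophils of cores, mouse 28 stood highest for both Ccl3 (11226 CPM) and Ccl4 (29915 CPM), from 19 cells, and mouse 17 for Ccl5 (676 CPM). In macrophages of cores, the highest values were 1079 CPM of Ccl3 in mouse 28, 4030 CPM of Ccl4 in mouse 24 and 752 CPM of Ccl5 in mouse 25. Macrophages of distal normal tissue had 793 CPM of Ccl4 in mouse 23, and 0 UMIs of Ccl5 in mouse 28. Macrophages of the metastasis of mouse 26 had 312 CPM of Ccl5, and those of relapse-free mouse 29 had 193 CPM of Ccl3. Monocytes of the margin of mouse 36 had 2202 CPM of Ccl4. Relapse-free mouse 7 stood highest in Ccl3, at 924 CPM in neutrophils and 193 CPM over all immune cells.

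Cells labelled Erythrocytes entered no comparison of the report. Their 336 cells held Ccl5 at 12397 CPM in total, control lungs included, and 59.8% of them had a UMI of it. By tissue it was at 8182 CPM in the 7 such cells of control lungs, lower at 7690 CPM in 90 cells of distal normal tissue, and between 9313 and 19180 CPM in the other 4 tissues. The cells with a Ccl5 UMI had Gzma at 4493 CPM and Nkg7 at 4505 CPM, and the others 72.2 and 375 CPM.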

How the results depend on the processing

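Across the alternatives, 454 of the values of single fits kept their direction and side of the threshold, 22 lost a call, 21 gained 1 and 31 changed direction; over all immune cells 61 kept both, 3 lost a call and 2 gained 1. Of the label means, 70 of 75 moved by less than the spread between samples with at least 20 cells per sample. Of the shares of cells with a UMI, 119 moved beyond their interval without thinning or at 1000 UMIs, and 43 did not. None of the values that changed direction was called under either setting.

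In distal normal tissue against metastasis within lineages, the 2 calls became 6 with no filter on low counts, 1 with cells of at least 1000 UMIs, 1 without mouse 17, and went from 1 to 0 in the lineages refitted with at least 20 cells per sample. In control against Pre-MET lungs they became 4 with no filter and 1 to 2 with 1 lung left out. In primary tumor against core they became 7 with no filter, 1 of them lower in cores, 6 in DESeq2, 1 with DESeq2-type scaling in edgeR, 1 with at least 20 cells, 1 without mouse 17 and 1 to 3 with 1 tumor left out. Within labels of that comparison the 1 call became 2 with cells of at least 1000 UMIs and 0 to 1 with 1 sample left out. In margin against core the 1 call became 2 with no filter, 2 in DESeq2 and 0 with sequencing batch as a covariate. The 1 called share of UMIs became 0 with cells of at least 1000 UMIs and 0 unpaired (Ccl5 in macrophages, adjusted p = 0.102).

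With the mouse as a block, the 1 call in margin against core became 2, and the block changed no other call of the edgeR fits. Over all immune cells, margin against core, Ccl3 and Ccl4 passed unpaired (1.51 and 1.62 apart, adjusted p 0.00182 and 0.00257 by permutation) but not paired (0.0536 each). The unpaired test treats samples of the same mouse as independent. In margin against core the block turned the direction of Ccl5 in T cells (-0.04) and Ccl4 in NK cells (0.23). In distal normal tissue against metastasis it turned Ccl4 (0.00) and Ccl5 (0.03) in NK_Ncr1 cells and Ccl5 in T_CD8_Gzmk cells (0.10). Unpaired, the Ccl3 share in macrophages was 13.1 and the Ccl5 share in B cells -0.0088 percentage points apart.

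Other values that changed direction, in log2 units, were as follows. With no filter, Ccl4 in NK cells was -0.42 between control and Pre-MET lungs and Ccl5 in T cells -0.01 between margin and core. With cells of at least 1000 UMIs these were -0.82 and -0.32, Ccl3 in Mac_Cd81 cells -8.53 (core over primary tumor, against libraries near 0), and the shares of Ccl3 and Ccl5 in T cells -1.19 and -1.76 percentage points. With at least 20 cells, Ccl3 in NK cells (Pre-MET over control) was 0.12 and Ccl5 in monocytes (core over primary tumor) 0.07, and with at least 10 UMIs of the gene the Ccl3 share in monocytes was -0.499. With batch as a covariate, Ccl3 in monocytes was -0.15 (core over primary tumor) and Ccl4 in NK cells 0.03 (core over margin). With T_CD8_Lag3 or Mon_Thbs1 cells left out, an alternative chosen after seeing the data, Ccl5 in T cells was -0.25 (core over margin) and Ccl5 in monocytes 0.11 (core over primary tumor).

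With 1 sample left out, Pre-MET over control ranged from -2.02 to 0.25 for Ccl3 in NK cells, -0.65 to 0.30 for Ccl4 in NK cells and -0.74 to 0.07 for Ccl4 in monocytes. Core over primary tumor ranged from -0.43 to 0.39 for Ccl5 in monocytes, -0.22 to 2.45 for Ccl3 in neutrophils, -1.84 to 1.90 for Ccl3, -0.77 to 0.27 for Ccl4 and -2.57 to 0.38 for Ccl5 in Mac_Cd81 cells and -0.54 to 1.01 for Ccl5 in T_CD4_S100a4 cells, and core over margin from -0.37 to 0.12 for Ccl4 in NK cells. The cause of these changes was not tested. Depth limits Ccl3 most, with 8 of its 19 lineage fits too low to test, and sums of 10 to 30 cells carry few UMIs.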

Other observations

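Plasmacytoid dendritic cells (DC_pDC), which sense viral nucleic acids, were not part of the tissue comparisons. Thinned to 500 UMIs, 26 of 73 such cells had Ccl4, a share of 35.6% (95% Wilson interval 25.6 to 47.1%), against 6.85% with Ccl5. No cell had Ccl3 after thinning, and 2.74% did before it. Of 333 Ccl4 UMIs, 53 were in 1 cell, and 5 cells held 50% of the total.

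Migratory dendritic cells carried Ccl5, and 0.855% of 117 had a Ccl3 UMI, or 0 after thinning to 500 UMIs. In primary tumors their 3 sums were at 21992, 12329 and 18968 CPM, and over all tissues 8 of 117 DC_migDC cells held 50% of their Ccl5 UMIs, with 848 in the highest cell.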
